A study of Homo sapiens with 6 samples.

Results

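The mitochondrial ribosomal proteins were taken as the 78 genes, of 16197 in the deposited table, whose symbol begins with MRPL or MRPS and a number. The cells were Panc1, an established cell line of human pancreatic carcinoma, given either the solvent DMSO or BRQ, read here as brequinar since DHODH inhibition is in the title of the series. Each group held 3 libraries, all from the same line, and no genetic change was labelled. Neither a dose nor a duration is known from the labels. It is also unknown whether the libraries were grown apart, so the p-values reflect the spread among these libraries alone, which could be technical. The comparison asks how RNA levels differed after DHODH inhibition.

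Mitochondria carry their own ribosome, which makes a small set of membrane proteins of the respiratory chain and the ATP synthase from mitochondrial DNA. Its rRNAs come from the mitochondrial genome, while all of its proteins are encoded in the nucleus, made in the cytosol and imported. Part of these proteins descend from bacterial ribosomal proteins, and others have no bacterial counterpart. DHODH sits in the inner mitochondrial membrane and passes electrons to the quinone pool that the respiratory chain also uses.

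By name, 49 of the genes are MRPL and 29 are MRPS. By the place of the protein, 51 belong to the large subunit, since the proteins of MRPS18A and MRPS30 sit there, and 26 belong to the small subunit. The protein of MRPS36 is now known as a part of the oxoglutarate dehydrogenase complex, and the gene was kept because the rule is by name. The table's own gene ontology terms named the mitochondrial ribosome for 75 of the 78. All 78 were matched to a protein-coding gene of GENCODE 29 (GRCh38), on 21 chromosomes. In that annotation, 34 of the genes have at least 1 pseudogene named after them, 75 pseudogenes in all. How reads that match several near copies were counted is not known, so these levels are uncertain.

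Levels were deposited as FPKM, fragments scaled to gene length and library total. The steps between low FPKM values gave relative depths from 0.959 to 0.986 in the DMSO libraries and from 1.02 to 1.03 in the BRQ libraries, and a rough absolute depth of 31500000 fragments. Of 6 epithelial markers, KRT8, KRT18, KRT19 and EPCAM averaged 802, 834, 718 and 85.4 FPKM in DMSO, while KRT7 and CDH1 were low at 1.24 and 4.95. These 6 summed to 2366 to 2489 FPKM in DMSO and 2206 to 2352 in BRQ. VIM, a mesenchymal marker kept in the same list, fell from 1870 to 880 FPKM on average. The 7 erythroid markers in the table summed to 88.8 and 46.1 FPKM in BRQ libraries 1 and 2 against 1.85 in BRQ library 3 and 0.592 to 2.11 in DMSO. Nearly all of the sums in BRQ libraries 1 and 2 was HBB, HBA2 and HBA1. HBD, ALAS2, AHSP and SLC4A1 were under 0.3 FPKM in every library. The 6 leukocyte markers summed to 1.63 to 3.63 FPKM over all libraries, and the 8 fibroblast and endothelial markers to 52.3 to 55.9 FPKM in DMSO and 77.6 to 84.0 in BRQ, nearly all of it LUM. The part of these markers in the results was not tested, and values without BRQ libraries 1 and 2 are given where a call of a named gene changes. That setting leaves 1 BRQ library. In bulk RNA, fewer cells of a type and less RNA per cell cannot be told apart.

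More of the mitochondrial ribosomal protein genes were higher than lower after BRQ, and the changes were small. Of the 78 genes, 77 had a mean of at least 1 FPKM and were tested, and MRPS24 was not. With limma on log2(FPKM + 1) and an adjusted p of 0.05 as the threshold, 38 rose, 8 fell and 31 did not pass, where 62.1% of all tested genes passed in either direction. That is 49.4% higher, where 36.9% of all tested genes were, and 10.4% lower, where 25.2% of all tested genes were. The median log2 fold change, BRQ over DMSO, was 0.15 over the members and 0.06 over all 10689 tested genes. Under median-of-ratios or TPM scaling both medians were lower, at 0.09 and 0.01. The ratio of mean FPKM ran from 0.547 to 1.85. The 3 BRQ values lay above all 3 DMSO values for 39 of the 77 genes, where 39.3% of all tested genes did so, and below them for 8, where 27.9% did. Over all tested genes, 67.2% had groups that did not overlap.

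**Figure D1:**
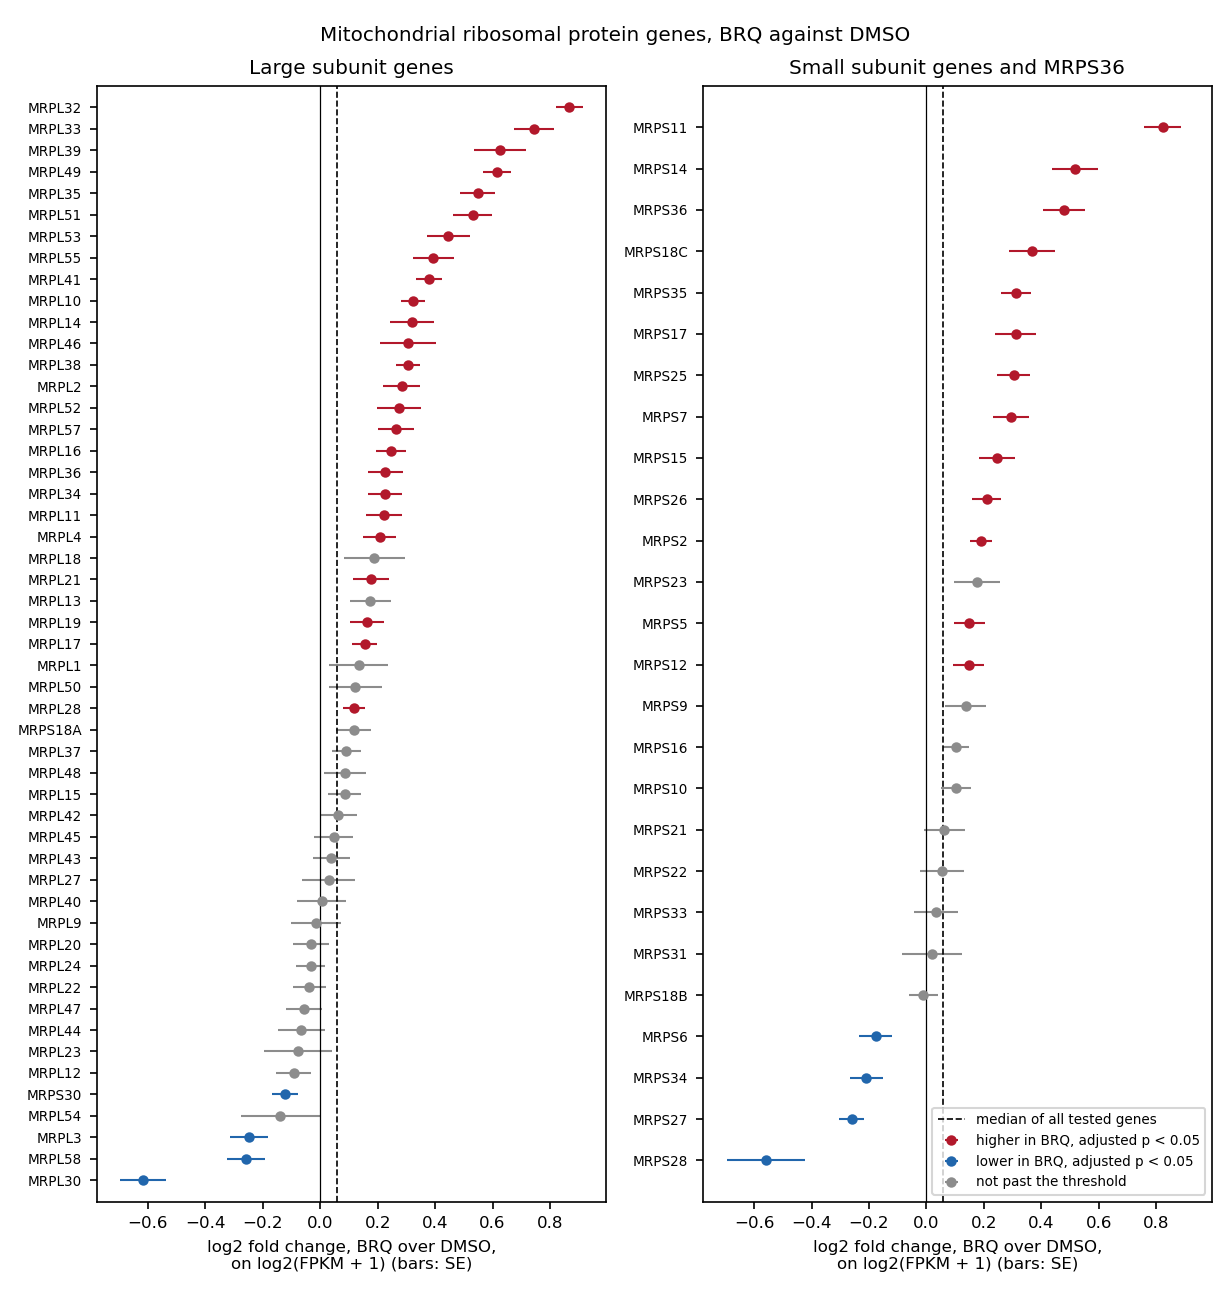
Each point is the log2 fold change of 1 gene, BRQ over DMSO from log2(FPKM + 1), with its SE as a bar, for large subunit genes on the left and small subunit genes with MRPS36 on the right. Colours mark genes past an adjusted p of 0.05, and the dashed line is the median of all tested genes at 0.06. Most points lie right of 0, between MRPL30 at -0.62 and MRPL32 at 0.87.

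Both subunits showed this pattern, read against 36.9% higher and 25.2% lower over all tested genes. In the large subunit 25 of 51 genes rose (49%) and 4 fell (7.84%), with a median log2 fold change of 0.15. In the small subunit 12 of 25 tested genes rose (48%) and 4 fell (16%), also with a median of 0.15. Of 47 tested genes with a bacterial counterpart, 25 rose (53.2%) and 4 fell (8.51%). Of 29 genes without one, 12 rose (41.4%, near the share in all genes) and 4 fell (13.8%). The difference between these classes was not tested.

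The span of the gene moved with the result. The members span a median of 12.4 kb of the genome, against 30.5 kb for all tested genes with a position, and short genes were more often higher in BRQ throughout the table. Under 10 kb, 22 of 34 members rose (64.7%), against 50% of all genes of that span. Between 10 and 30 kb, 11 of 25 members rose (44%), against 47.4%. Over 30 kb, 5 of 18 rose (27.8%), against 25.7%. The members were lower less often than all genes in each of these ranges, at 5.88% against 18.5%, 8% against 16.4% and 22.2% against 33.2%. When each library's trend with genomic span was removed, 26 members were higher (33.8%, against 35.5% of all tested genes). Another 12 were lower (15.6%, against 23.9%). The median log2 fold change was then 0.07 over the members and 0.05 over all tested genes. Without that trend, the share of members that were higher stood near the share in all genes.

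**Figure D2:**
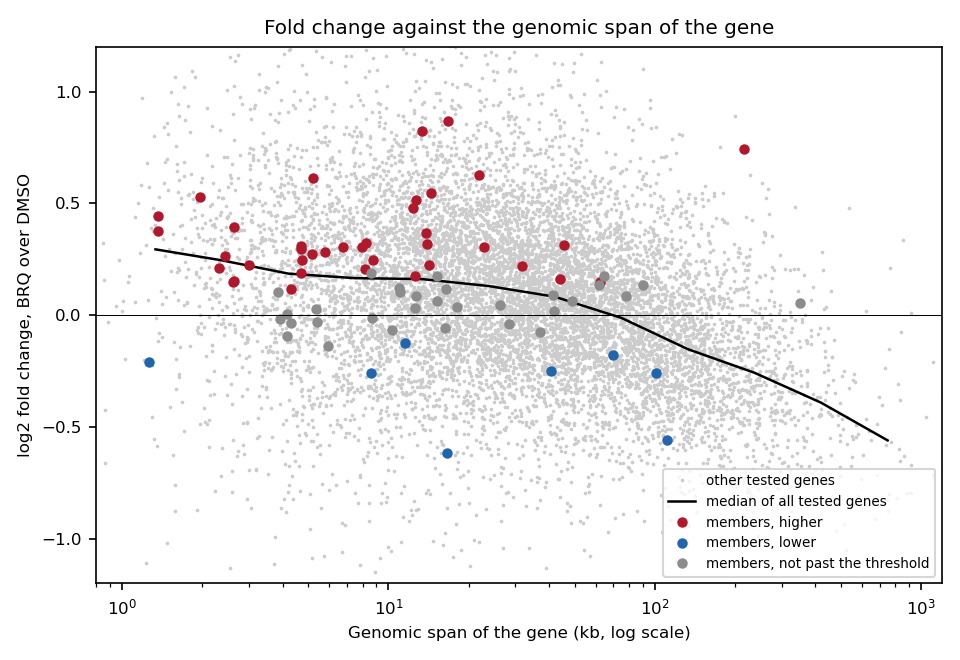
Grey points are all other tested genes and coloured points the 77 members, with genomic span in kb on a logarithmic x axis and the log2 fold change, BRQ over DMSO, on the y axis. Genes beyond the axis limits are not drawn. The black line is the median of all tested genes in narrow span bins. Over the wider ranges used in the text, the median of all tested genes was 0.19 under 10 kb and -0.04 above 30 kb. These 2 values are not the ends of the line.

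MRPL32, the counterpart of bacterial L32, had the largest increase. It stood at 31.9, 29.3 and 31.5 FPKM in the DMSO libraries and at 57.5, 55.95 and 58.1 FPKM in the BRQ libraries. The groups did not overlap, with means of 30.9 ± 1.39 and 57.2 ± 1.12 FPKM (SD, n = 3), and the log2 fold change was 0.87 ± 0.05 (SE, limma adjusted p = 1.80e-07). In yeast and mouse, maturation of this protein by a protease of the inner membrane is needed for ribosome assembly. The gene lies on chromosome 7 from 42932200 to 42948958 (GRCh38).

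MRPS11, the counterpart of bacterial S11 on the platform of the small subunit, was next. Its levels were 12.1, 11.6 and 12.3 FPKM in DMSO and 24.1, 20.4 and 21.6 FPKM in BRQ. The BRQ values were all above the DMSO values, and the log2 fold change was 0.82 ± 0.06 (adjusted p = 1.67e-06). MRPS11 lies on chromosome 15 from 88467453 to 88480773. It is head to head with MRPL46, a large subunit gene, with 34 bases between their GENCODE starts. MRPL46 rose less, from 28.9 ± 3.56 to 35.9 ± 4.62 FPKM, with groups that overlapped (log2 change 0.31 ± 0.10, adjusted p = 0.0180); the difference between the genes was not tested. MRPL46 falls outside the rule for named genes and was chosen after its values were seen.

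MRPL33, the counterpart of bacterial L33, was at 20.8, 22.1 and 20.3 FPKM in DMSO and at 39.3, 36.998 and 32.1 FPKM in BRQ. BRQ library 3 was the lowest of its group but above every DMSO library, and the log2 fold change was 0.74 ± 0.07 (adjusted p = 6.22e-06). GENCODE gives the gene a span of 216371 bases on chromosome 2 from 27771717 to 27988087, and 21.1% of its exonic bases are shared with BABAM2. MRPL39, a large subunit gene without a bacterial counterpart, was low, with 4.598, 3.398 and 3.86 FPKM in DMSO and 6.91, 6.63 and 6.29 FPKM in BRQ (log2 change 0.63 ± 0.09, adjusted p = 1.38e-04). Its mean level stands for about 199 fragments a library at the rough depth. MRPL49, also without a bacterial counterpart, was at 53.8, 48.04 and 51.1 FPKM in DMSO and at 79.3, 78.5 and 77.8 FPKM in BRQ. Its groups did not overlap, and the log2 fold change was 0.62 ± 0.05 (adjusted p = 1.50e-06). Of the exonic bases of MRPL49, 12.2% overlap SYVN1 and FAU on the opposite strand. FAU was at 420 ± 9.33 FPKM in DMSO and 510 ± 42.3 FPKM in BRQ. The part of that overlap in the MRPL49 values was not tested.

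The other large subunit genes among the 12 largest increases were MRPL35, MRPL51, MRPL53, MRPL55 and MRPL41. MRPL35, the counterpart of bacterial L35, rose from 34.96 ± 1.63 to 51.6 ± 4.24 FPKM. MRPL51, without a bacterial counterpart, rose from 50.3 ± 3.197 to 73.2 ± 7.14 FPKM, and 31.3% of its exonic bases overlap NCAPD2 on the opposite strand. MRPL53, also without one, rose from 53.3 ± 5.28 to 72.9 ± 6.06 FPKM, and 45.2% of its exonic bases overlap CCDC142 on the same strand. The values of both are uncertain, since it is not known how reads from such overlaps were counted. MRPL55 rose from 16.8 ± 1.69 to 22.3 ± 0.974 FPKM, and MRPL41 from 60.9 ± 3.24 to 79.5 ± 1.04 FPKM. Without the span trend the log2 changes of MRPL53, MRPL55 and MRPL41 were 0.23, 0.23 and 0.16, against 0.45, 0.39 and 0.38, and their calls held. In the small subunit, MRPS14, the counterpart of bacterial S14, rose from 10.2 ± 0.963 to 15.1 ± 1.35 FPKM. MRPS36 rose from 11.8 ± 1.37 to 16.8 ± 0.434 FPKM. Among these 7 genes the adjusted p reached at most 5.97e-04. Groups without overlap were a condition for every gene named here as a largest increase or decrease.

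**Figure D3:**
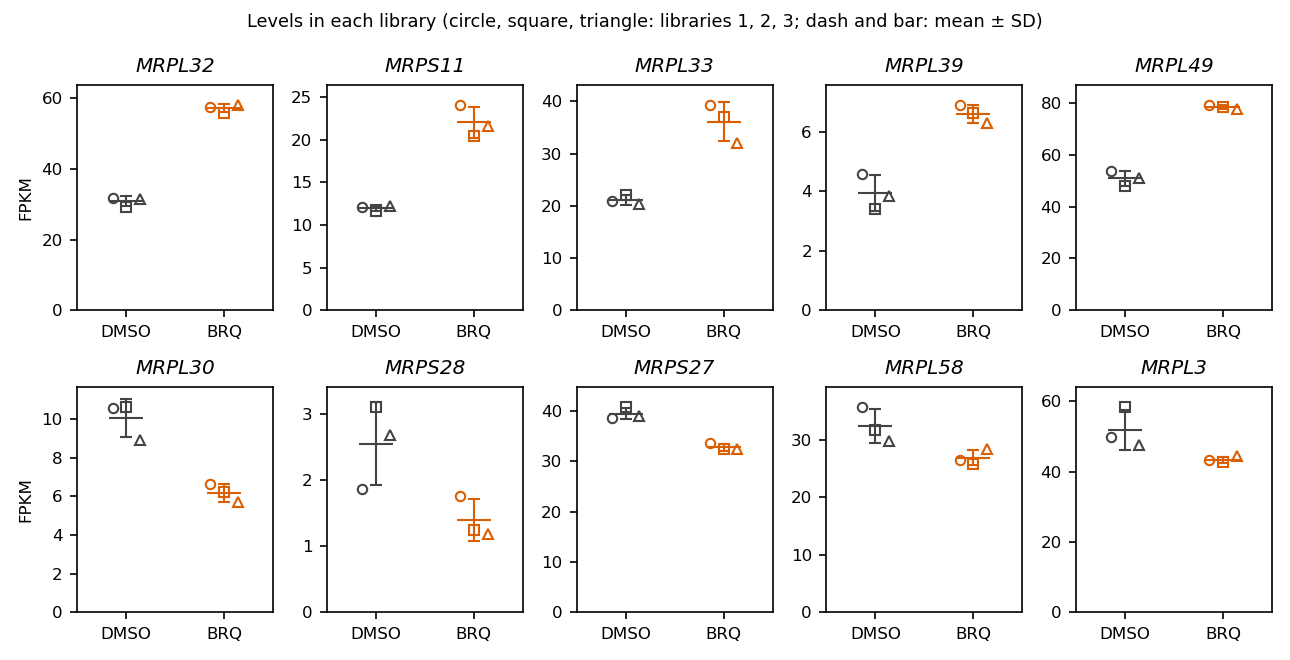
FPKM in each library on a linear axis from 0, for the 5 largest increases in the top row and the 5 largest decreases in the bottom row. Symbols are libraries 1, 2 and 3 of a group, the dash is the group mean and the bar the SD. In each panel the BRQ and DMSO values lie apart, which was a condition for the choice of these genes. For MRPS28 they nearly meet, where DMSO library 1 at 1.87 FPKM stands next to BRQ library 1 at 1.76 FPKM.

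Among the 8 genes that fell, MRPL30 changed most. This counterpart of bacterial L30 stood at 10.6, 10.6 and 8.898 FPKM in DMSO and at 6.62, 6.21 and 5.699 FPKM in BRQ. All BRQ values were below all DMSO values, and the log2 change was -0.62 ± 0.08 (adjusted p = 6.55e-05). MRPL30 lies on chromosome 2 from 99181079 to 99197626, and 19.5% of its exonic bases are shared with other annotated genes. MRPS28, a small subunit gene, was next but rested on few reads, with 1.87, 3.096 and 2.68 FPKM in DMSO and 1.76, 1.25 and 1.18 FPKM in BRQ (log2 change -0.56 ± 0.14, adjusted p = 0.00427). At the rough depth its mean stands for about 113 fragments a library, and 35.8% of its exonic bases are shared with another annotated gene.

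The remaining decreases were smaller. MRPS27, a small subunit protein of the pentatricopeptide repeat family, had 38.7, 40.8 and 39.02 FPKM in DMSO and 33.6, 32.4 and 32.4 FPKM in BRQ (log2 change -0.26 ± 0.04, adjusted p = 4.20e-04). Without the span trend its log2 change was -0.13 (adjusted p = 0.0420). MRPL58, a peptidyl-tRNA hydrolase built into the large subunit, fell from 32.4 ± 2.99 to 26.8 ± 1.31 FPKM (adjusted p = 0.00558). MRPL3, the counterpart of bacterial L3, fell from 51.9 ± 5.68 to 43.4 ± 0.869 FPKM (adjusted p = 0.00763). Both calls ended without BRQ libraries 1 and 2. The log2 change of MRPL58 was then -0.18 against -0.26 ± 0.07 with all libraries (adjusted p = 0.118, 6.04e-04 to 0.118 over all settings). That of MRPL3 was -0.22 against -0.25 ± 0.07 (adjusted p = 0.0902, 0.00125 to 0.0902). MRPS34, without a bacterial counterpart, fell from 128 ± 4.99 to 111 ± 8.55 FPKM (adjusted p = 0.00776). Its log2 change was -0.43 without the span trend, against -0.21 ± 0.06. MRPS6, the counterpart of bacterial S6, fell from 35.7 ± 1.15 to 31.5 ± 2.39 FPKM (adjusted p = 0.0211, 0.00336 to 0.135 over all settings). MRPS30 fell from 42.1 ± 1.25 to 38.6 ± 0.853 FPKM (adjusted p = 0.0304, 8.76e-04 to 0.139). The calls of MRPS6 and MRPS30 were lost in part of the settings. Without BRQ libraries 1 and 2, the log2 change of MRPS6 was -0.12 against -0.18 ± 0.06 (adjusted p = 0.135). That of MRPS30 was -0.12 against -0.12 ± 0.04, so nearly the same size (adjusted p = 0.139).

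The members differed widely in level. Their mean FPKM, which is scaled to gene length, ran from 1.28 to 140.0 among tested genes with a median of 31.5, against 10.6 for all tested genes. Of the 78, 3 averaged at least 100 FPKM, 64 lay between 10 and 100 and 11 were under 10. MRPL12 had the highest mean. Its protein forms the flexible stalk that recruits translation factors, and its gene was at 147, 147 and 139.8 FPKM in DMSO and at 150.2, 132 and 125 FPKM in BRQ. The groups overlapped through BRQ library 1, and the difference did not pass (log2 change -0.09 ± 0.06, adjusted p = 0.203). Without BRQ library 1 it passed as lower (log2 change -0.17, adjusted p = 0.00523), as it did under both other scalings, without the span trend and without BRQ libraries 1 and 2 (log2 change -0.20, adjusted p = 0.00990, 0.00201 to 0.609 over all settings). Of its exonic bases, 68.2% are shared with another annotated gene on the same strand. MRPL10, whose protein anchors that stalk, rose, from 35.1, 35.7 and 36.2 FPKM in DMSO to 44.4, 44.6 and 45.6 FPKM in BRQ (log2 change 0.32 ± 0.04, adjusted p = 5.58e-05).

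After MRPL12, the highest means were those of MRPS34, MRPL28, MRPL24 and MRPS2. MRPL28, a large subunit gene, was at 100.4 ± 2.21 and 109 ± 0.3301 FPKM in DMSO and BRQ (log2 change 0.12 ± 0.04, adjusted p = 0.0179). That call was lost under both other scalings, without DMSO library 1 or 3, and without BRQ libraries 1 and 2, where the log2 change was 0.12 (adjusted p = 0.0926). The direction turned when the span trend was removed (log2 change -0.02, adjusted p = 0.704, 0.0111 to 0.704 over all settings). MRPL24 did not pass (93.2 ± 4.07 and 91.05 ± 4.68 FPKM, adjusted p = 0.574), and it passed as lower without the span trend (adjusted p = 0.00412, 0.00412 to 0.980 over all settings). MRPS2, the counterpart of bacterial S2, rose from 78.5 ± 1.14 to 89.7 ± 1.27 FPKM (log2 change 0.19 ± 0.04, adjusted p = 0.00121), and without the span trend it did not pass (log2 change 0.06, adjusted p = 0.177, 0.00101 to 0.177 over all settings).

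At the other end, MRPS24 was nearly undetected, at 0, 0.515 and 0.364 FPKM in DMSO and 0.132, 0.0436 and 0.392 FPKM in BRQ. Its protein is the counterpart of bacterial S3 in the small subunit. In GENCODE 29 its exons overlap those of the read-through gene URGCP-MRPS24 over 23.2% of their bases. The part of that overlap in the low value was not tested.

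The paralogs MRPS18A, MRPS18B and MRPS18C are all related to bacterial S18. MRPS18C rose from 11.9, 13.01 and 11.7 FPKM in DMSO to 18.4, 14.5 and 15.5 FPKM in BRQ (log2 change 0.37 ± 0.08, adjusted p = 0.00245). MRPS18A, whose protein sits in the large subunit, did not pass at 38.04 ± 3.06 and 41.3 ± 1.73 FPKM (log2 change 0.12 ± 0.06, adjusted p = 0.114). Without DMSO library 1 it passed as higher (log2 change 0.17, adjusted p = 0.0308, 0.0308 to 0.841 over all settings). MRPS18B did not pass at 46.4 ± 1.502 and 46.1 ± 2.503 FPKM (log2 change -0.01 ± 0.05, adjusted p = 0.865), though it did as lower without the span trend (adjusted p = 0.0415, 0.0415 to 0.922 over all settings). The difference between the paralogs' changes was not tested. The exons of MRPS18A and MRPS18C overlap genes on the opposite strand over 47.04% and 40.2% of their bases.

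The members also shared a difference between the BRQ libraries. BRQ library 1 had the highest of the 3 BRQ values for 61 of the 77 genes (79.2%), against 40% of all tested genes. Relative to each gene's mean over the 6 libraries, the median member stood at 0.15, 0.01 and 0.07 log2 units in BRQ libraries 1, 2 and 3 and at -0.07, -0.06 and -0.11 in DMSO libraries 1, 2 and 3. Each BRQ library lay above each DMSO library at that median, as it did at the median of all tested genes, which was 0.04, 0.02 and 0.03 in BRQ and -0.03 in each DMSO library. Without BRQ library 1, 34 members were higher (44.2%, against 35.4% of all tested genes) and 9 lower (11.7%, against 24.6%), and the median log2 fold change was 0.11, against 0.05.

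Promoters were compared because 38 of the 77 tested members rose and 8 fell. Without the span trend 33.8% of members rose, against 35.5% of all tested genes. RefSeq promoter windows of 300 bases around the start were found for 69 of the 78 genes (GRCh38.p14). Motifs were searched on both strands, and each share is given for members, then for the 8685 promoters of tested genes and for all 35116 promoters of the table. The ETS-type motif CCGGAAG was present in 42.0%, against 21.1% and 10.3%. The YY1-type motif AAGATGGCG was present in 18.8%, against 4.41% and 1.75%. The full NRF1 consensus motif was present in 2.90%, against 3.06% and 1.48%, and a shorter NRF1 core in 11.6%, against 12.4% and 5.78%. Neither was more frequent in members than in tested genes. Matches were found for the CGCG palindrome in 1.45%, against 1.04% and 0.424%, and TATAAA in 2.90%, against 5.37% and 11.5%. ETS and YY1 matches overlapped in 0 member windows. The ETS motif was in 10 of the 33 members that rose and have a window and in 4 of the 7 that fell, and the YY1 motif in 5 of 33 and 1 of 7. A match describes letters and shows no binding.

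The windows printed next lie around the RefSeq start of each gene. They cover the 5 largest increases, MRPL46, whose window overlaps that of MRPS11, and the largest decrease. Capitals mark matches on either strand to the motifs other than the NRF1 core, and each line is the strand of the gene, 5′ to 3′.
MRPL32, chr7:42932126-42932425, plus strand, 1 YY1 match: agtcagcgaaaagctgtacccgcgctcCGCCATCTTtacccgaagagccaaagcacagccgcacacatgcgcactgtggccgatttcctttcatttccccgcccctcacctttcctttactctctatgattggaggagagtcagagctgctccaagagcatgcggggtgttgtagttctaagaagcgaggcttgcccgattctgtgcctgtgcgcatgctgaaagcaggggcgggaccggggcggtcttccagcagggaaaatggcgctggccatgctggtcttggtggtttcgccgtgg
MRPS11, chr15:88467458-88467757, plus strand, no match: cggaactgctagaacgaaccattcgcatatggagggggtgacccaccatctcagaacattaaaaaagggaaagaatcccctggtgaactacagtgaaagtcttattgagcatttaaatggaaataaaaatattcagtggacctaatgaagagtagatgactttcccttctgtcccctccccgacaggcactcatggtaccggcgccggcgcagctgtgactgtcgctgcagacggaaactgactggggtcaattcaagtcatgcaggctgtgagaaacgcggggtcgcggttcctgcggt
MRPL46, chr15:88467339-88467638, minus strand, 1 YY1 match: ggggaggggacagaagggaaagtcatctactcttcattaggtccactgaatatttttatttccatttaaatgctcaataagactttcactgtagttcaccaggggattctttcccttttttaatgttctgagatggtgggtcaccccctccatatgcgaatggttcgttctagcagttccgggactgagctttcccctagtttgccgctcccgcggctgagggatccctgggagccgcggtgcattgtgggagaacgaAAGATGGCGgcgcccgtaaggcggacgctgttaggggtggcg
MRPL33, chr2:27771469-27771768, plus strand, 1 ETS match: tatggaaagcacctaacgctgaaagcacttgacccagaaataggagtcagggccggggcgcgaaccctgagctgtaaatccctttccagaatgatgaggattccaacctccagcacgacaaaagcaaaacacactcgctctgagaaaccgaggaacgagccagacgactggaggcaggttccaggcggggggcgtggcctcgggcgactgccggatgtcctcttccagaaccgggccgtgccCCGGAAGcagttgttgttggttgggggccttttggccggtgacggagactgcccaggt
MRPL39, chr21:25607432-25607731, minus strand, no match: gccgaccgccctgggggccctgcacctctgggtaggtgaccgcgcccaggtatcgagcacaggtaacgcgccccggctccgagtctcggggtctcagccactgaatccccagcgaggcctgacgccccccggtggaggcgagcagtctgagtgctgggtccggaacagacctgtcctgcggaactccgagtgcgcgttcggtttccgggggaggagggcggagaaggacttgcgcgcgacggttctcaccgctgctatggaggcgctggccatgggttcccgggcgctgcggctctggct
MRPL49, chr11:65121933-65122232, plus strand, no match: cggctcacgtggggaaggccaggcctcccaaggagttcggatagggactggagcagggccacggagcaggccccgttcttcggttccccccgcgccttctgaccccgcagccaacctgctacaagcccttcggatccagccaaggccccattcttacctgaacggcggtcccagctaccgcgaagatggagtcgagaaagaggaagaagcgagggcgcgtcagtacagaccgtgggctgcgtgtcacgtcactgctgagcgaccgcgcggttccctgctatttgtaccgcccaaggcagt
MRPL30, chr2:99180934-99181233, plus strand, 1 ETS match: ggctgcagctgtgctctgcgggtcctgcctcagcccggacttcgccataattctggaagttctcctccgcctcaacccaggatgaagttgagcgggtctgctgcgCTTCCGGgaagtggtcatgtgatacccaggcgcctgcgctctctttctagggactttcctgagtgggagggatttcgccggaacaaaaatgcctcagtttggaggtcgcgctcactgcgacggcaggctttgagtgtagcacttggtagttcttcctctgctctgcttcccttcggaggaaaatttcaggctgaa
The windows of MRPS11 and MRPL46 cover part of the same DNA from opposite strands. The RefSeq window of MRPS11 begins at 88467458, downstream of its GENCODE start at 88467453. It therefore holds none of the DNA between the GENCODE starts of both genes, and the YY1 match of MRPL46 lies outside it. Of the 5 largest increases, MRPL32 and MRPL33 have a match in their windows and MRPS11, MRPL39 and MRPL49 have none in theirs. An ETS match is present both in MRPL33, which rose, and in MRPL30, the largest decrease.

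Genes for the regulators named with such promoters were lower or did not pass. Of 9 tested regulators of mitochondrial gene promoters, 0 rose and 7 fell (77.8%, against 25.2% of all tested genes), with a median log2 fold change of -0.31. NRF1, an activator of nuclear genes for mitochondria, fell from 5.11 ± 0.421 to 4.05 ± 0.232 FPKM (adjusted p = 0.00963). Without the span trend its log2 change was -0.06 against -0.27 ± 0.08 (adjusted p = 0.497). Without BRQ libraries 1 and 2 it was -0.22 (adjusted p = 0.134, 0.00390 to 0.497 over all settings). YY1 fell from 20.3 ± 0.724 to 16.2 ± 0.559 FPKM (adjusted p = 4.04e-04) and SP1, a factor of GC-rich promoters, from 27.6 ± 0.903 to 18.2 ± 1.16 FPKM (adjusted p = 7.96e-06). PPARGC1B, a coactivator of mitochondrial genes, fell from 2.63 ± 0.253 to 1.13 ± 0.2198 FPKM, and MYC from 77.9 ± 2.81 to 44.9 ± 1.81 FPKM. GABPA, an ETS factor, did not pass (4.15 ± 0.139 and 4.43 ± 0.165 FPKM, adjusted p = 0.347). GABPB1, in the same list, fell from 5.33 ± 0.138 to 4.11 ± 0.173 FPKM (limma adjusted p = 0.00210). It falls outside the rule for named genes and was added after its values were seen.

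Subunits of the mitochondrial ribosome whose names lack the prefix also moved both ways. Of 5, 3 rose (60%, against 36.9% of all tested genes), 1 fell (20%, against 25.2%) and 1 did not pass. With 5 genes these shares are coarse. CHCHD1 was at 13.2, 12.1 and 12.97 FPKM in DMSO and at 23.7, 18.5 and 20.995 FPKM in BRQ (log2 change 0.67 ± 0.08, adjusted p = 3.23e-05). AURKAIP1 rose from 71.9 ± 0.986 to 105 ± 5.46 FPKM and GADD45GIP1 from 28.8 ± 2.24 to 38.6 ± 4.32 FPKM. DAP3, a GTP-binding protein of the small subunit, fell from 102 ± 5.48 to 88.9 ± 5.01 FPKM (adjusted p = 0.00817), a call that ended without BRQ libraries 1 and 2, where the log2 change was -0.16 against -0.20 ± 0.05 (adjusted p = 0.0607, 5.09e-04 to 0.0607 over all settings). PTCD3 did not pass (22.1 ± 0.994 and 21.2 ± 0.456 FPKM, adjusted p = 0.384).

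Factors that build the mitochondrial ribosome or modify its RNA rose in 10 of 26 tested cases and fell in 4, with a median log2 fold change of 0.13. MRM2, which methylates the large rRNA, rose from 11.96 ± 0.653 to 17.6 ± 2.04 FPKM. ERAL1, a chaperone of the small rRNA, rose from 24.1 ± 1.89 to 34.4 ± 1.35 FPKM and RPUSD3, a pseudouridine synthase, from 13.5 ± 0.238 to 18.6 ± 1.11 FPKM. MRM1, another rRNA methyltransferase, fell from 2.47 ± 0.296 to 1.38 ± 0.1405 FPKM. NSUN4, which methylates the small rRNA, fell from 3.91 ± 0.381 to 2.98 ± 0.211 FPKM and RPUSD4, a further pseudouridine synthase, from 14.6 ± 0.249 to 12.2 ± 0.434 FPKM. Among these 6 genes the highest adjusted p was 0.00937, that of NSUN4. Without BRQ libraries 1 and 2 its log2 change was -0.25 against -0.30 ± 0.08, and the call ended (adjusted p = 0.109, 0.00264 to 0.109 over all settings). The share that rose, 38.5%, was near the 36.9% of all tested genes, and 15.4% fell, against 25.2%.

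Mitochondrial translation factors gave 7 increases and 2 decreases among 19 tested genes, with a median log2 fold change of 0.11. The share that rose, 36.8%, was near the 36.9% of all tested genes, and 10.5% fell, against 25.2%. MRRF, which recycles the mitochondrial ribosome after termination, fell from 17.7, 17.3 and 17.8 FPKM in DMSO to 8.67, 8.48 and 8.37 FPKM in BRQ (log2 change -0.97 ± 0.05, adjusted p = 1.80e-07). LRPPRC, which binds mitochondrial mRNAs, fell from 61.1 ± 1.401 to 47.2 ± 1.01 FPKM. MTRES1, a factor for stalled ribosomes, rose from 1.65 ± 0.301 to 3.53 ± 1.004 FPKM. MTFMT, which formylates the initiator methionine tRNA, rose from 3.99 ± 0.219 to 5.69 ± 0.6902 FPKM and TSFM, the exchange factor of the elongation factor TUFM, from 12.3 ± 1.14 to 16.8 ± 1.14 FPKM. Among these 5 genes the highest adjusted p was 0.00153, that of MTFMT. Without BRQ libraries 1 and 2 its log2 change was 0.24 against 0.42 ± 0.09, and the call ended (adjusted p = 0.0852, 4.45e-04 to 0.0852 over all settings).

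Genes that maintain and transcribe mitochondrial DNA or process its RNA were higher in 8 of 20 cases and lower in 6, with a median log2 fold change of -0.01. These shares, 40% and 30%, lay near the 36.9% and 25.2% of all tested genes. POLG, the catalytic subunit of the mitochondrial DNA polymerase, was at 24.6, 24.5 and 24.5 FPKM in DMSO and at 42.7, 42.6 and 40.4 FPKM in BRQ (log2 change 0.75 ± 0.04, adjusted p = 3.01e-07). Its accessory subunit POLG2 fell, from 13.4 ± 0.624 to 10.1 ± 0.281 FPKM (adjusted p = 2.54e-04). TFAM, which packages and transcribes mitochondrial DNA, rose from 8.22 ± 0.483 to 11.9 ± 0.521 FPKM and the nuclease ENDOG from 5.71 ± 1.37 to 10.1 ± 1.196 FPKM. MTPAP, the mitochondrial poly(A) polymerase, fell from 4.73 ± 0.4799 to 3.58 ± 0.0564 FPKM. Without BRQ libraries 1 and 2 its log2 change was -0.32 against -0.32 ± 0.08, and the call ended (adjusted p = 0.0514, 0.00195 to 0.0514 over all settings). PRORP, which cuts tRNA precursors, fell from 14.6 ± 0.653 to 12.1 ± 0.172 FPKM.

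**Figure D4:**
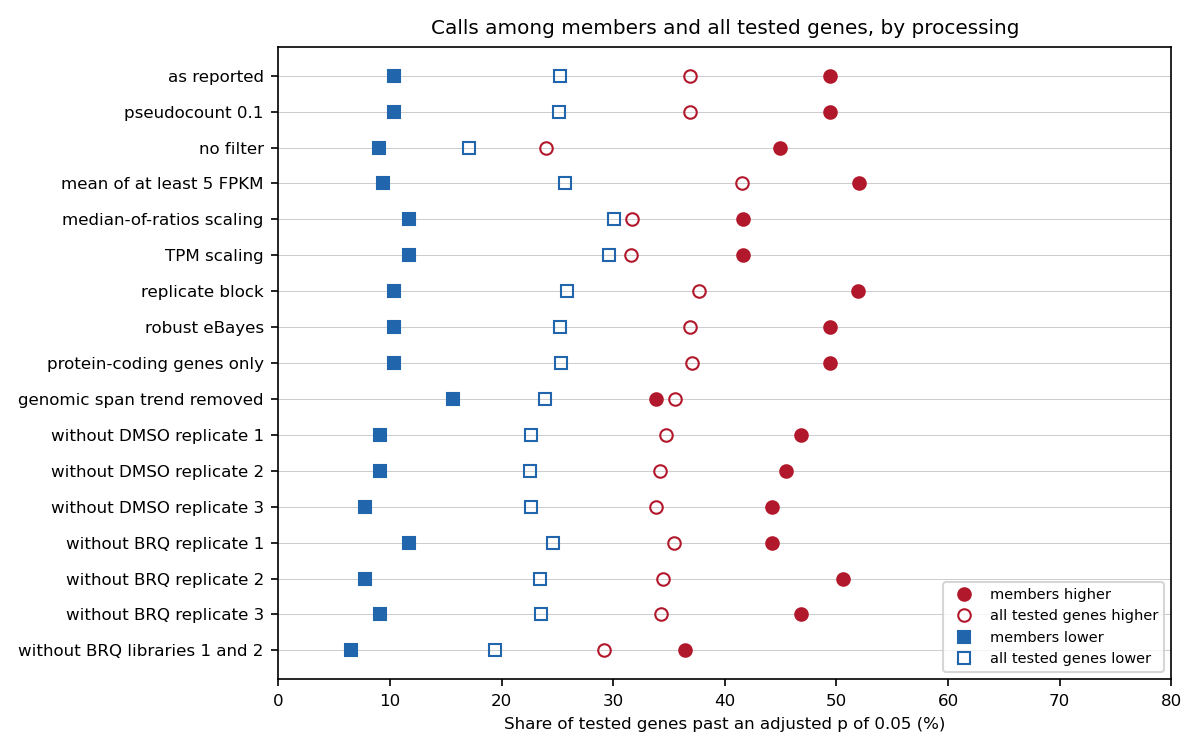
For each way of processing the data, filled symbols give the share of the tested members, and open symbols the share of all tested genes, that passed an adjusted p of 0.05, in red circles as higher and in blue squares as lower in BRQ. With the span trend removed, 33.8% of members and 35.5% of all genes were higher, and 15.6% and 23.9% were lower.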

How the data were processed

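RNA was sequenced from 6 libraries of Panc1 cells, 3 with DMSO and 3 with BRQ, grouped by their labels. The authors deposited FPKM values per gene and library. Per the submitters' processing notes, fastp, HTSeq and the build hg38 were used. Aligner, annotation, gene lengths and strand setting are not given in the sources used here. FPKM is relative to the library total, so a rise of abundant genes lowers others.

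Low values (under 0.3 FPKM) were whole multiples of a common step in 94.4% of 1459 genes, within 0.02 of a read. The steps gave relative depths and, with exonic lengths from GENCODE 29, a rough depth. Count models were left aside, since FPKM values are no counts.

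The fit used limma 3.58.1 (R 4.3.3) on log2(FPKM + 1) for the 10689 genes averaging 1 FPKM or more, with treatment as the sole term, eBayes with a mean-variance trend, two-sided tests and Benjamini-Hochberg adjustment over all tested genes. Fold changes on this scale understate changes of low genes. The procedure was tested on simulated data in which only a small part of the genes changed. In these data 62.1% of tested genes passed, a setting that the simulation does not cover. Levels are means ± SD (n = 3).

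The members and lists were chosen with earlier results of these data known. Named genes were the 12 largest increases and decreases past the threshold without overlap, the 5 highest levels, MRPS18A, MRPS18B, MRPS18C, MRPL10, MRPL12, MRPS36, members under the filter, subunits without the prefix, up to 3 genes per direction of each related list, and NRF1, GABPA and YY1. The settings tried were another pseudocount (0.1), other filters (none, or 5 FPKM), scaling by median of ratios or to TPM, robust variances, a replicate block, protein-coding genes alone, removal of a trend with genomic span (lowess, centred on each library's median), and leaving out libraries. The motifs were chosen after the members' values were seen. A shorter NRF1 core was searched first and the full consensus added later. Figures were drawn with matplotlib 3.10.9.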

Additional observations from a re-analysis of the deposited data

How the results depend on the processing

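Over the alternatives that keep at least 2 libraries a group, between 26 and 40 members were higher and between 6 and 12 were lower. The higher share ran from 33.8% to 52% of members and from 24% to 41.5% of all tested genes. The lower share ran from 7.79% to 15.6% of members and from 17.1% to 30.1% of all tested genes. With 1 library left out at a time, 34 to 39 were higher and 6 to 9 lower, and the median log2 fold change ran from 0.11 to 0.17. In these fits 33.8% to 35.4% of all tested genes were higher and 22.5% to 24.6% lower. Removal of the span trend lowered the members' median log2 fold change from 0.15 to 0.066, against 0.058 and 0.054 over all tested genes. It left 26 members higher (33.8%, against 35.5%) and 12 lower (15.6%, against 23.9%). The share of higher genes among members past the threshold went from 82.6% to 68.4%. Over all tested genes past the threshold it was 59.4% and 59.8%. Of the 38 higher calls, 24 remained. Without BRQ libraries 1 and 2, where the spread could come only from the DMSO libraries, 28 were higher and 5 lower. That fit leaves 1 BRQ library, so only its effect sizes are set against all tested genes. Without BRQ libraries 1 and 2 the median log2 fold change was 0.153 over the members and 0.053 over all tested genes. Median-of-ratios and TPM scaling each gave 32 higher (41.6%) and 9 lower (11.7%). Under these scalings all tested genes gave 31.7% and 31.6% higher and 30.1% and 29.6% lower. The cause of these shifts was not tested. Of 56 named genes tested, 41 kept direction and side of the threshold in each alternative that tested them. The log2 fold change of MRPL28 turned to -0.017 without the span trend. With 1 library left out, that of MRPL24 ran from -0.068 to 0.0055 and that of MRPS18B from -0.048 to 0.028. Deviations of same-numbered BRQ and DMSO libraries correlated at 0.144, 0.00804 and 0.0584, and those of differently numbered ones at -0.137 to 0.105. Whether the replicate numbers pair the libraries was not tested. With a replicate block, 40 members were higher (51.9%, against 37.7% of all tested genes) and 8 lower (10.4%, against 25.9%). Genes of few fragments, such as MRPS28 and MRPL39, are limited by depth.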

Other observations

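Part of the mitochondrial ribosomal protein genes start head to head with another gene. Within 1000 bases, 28 of the 78 (35.9%) had a protein-coding neighbour in the table that starts on the opposite strand, against 14.1% of all 15751 protein-coding genes in the table. These made 27 pairs because MRPS11 and MRPL46 are each other's. Both genes passed the threshold in 13 of 24 tested pairs (54.2%), against 42% of all 808 such pairs. Of those 13, 8 moved in the same direction (61.5%, against 64% over all such pairs), 6 higher and 2 lower. These neighbours were chosen after the members' values were seen, and where both exons overlap, reads may have been shared.

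MRPL30, the largest decrease, starts 21 bases from MITD1, a gene of the end of cytokinesis, which rose from 14.6 ± 0.464 to 20.7 ± 1.1004 FPKM (limma adjusted p = 3.15e-05). MRPL52 rose from 25.7 ± 1.03 to 31.5 ± 3.76 FPKM (adjusted p = 0.00899), while SLC7A7, an amino acid transporter gene that starts 59 bases away, fell from 15.5 ± 0.964 to 8.52 ± 0.804 FPKM (adjusted p = 5.29e-06). The start of MRPL32, the largest increase, overlaps that of PSMA2, a proteasome subunit, which did not pass (41.1 ± 2.89 and 45.7 ± 4.23 FPKM, adjusted p = 0.0856). MRPL36 and the complex I gene NDUFS6 both rose, the latter from 195 ± 6.94 to 279 ± 18.98 FPKM (adjusted p = 1.03e-05). MRPS27 and PTCD2, a gene of mitochondrial RNA processing, both fell, the latter from 8.35 ± 0.437 to 4.19 ± 0.554 FPKM (adjusted p = 9.40e-06). MRPS12 rose while its neighbour SARS2, the mitochondrial seryl-tRNA synthetase, fell from 10.3 ± 0.606 to 5.92 ± 0.297 FPKM (adjusted p = 6.23e-06). Among the remaining pairs with both genes past the threshold, MRPL21 and MRPL51 rose while IGHMBP2 and NCAPD2 fell. Both genes rose for MRPL11 with PELI3, MRPL14 with TMEM63B, MRPL49 with FAU, MRPS7 with GGA3 and MRPS11 with MRPL46. MRPS34 and EME2 both fell.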
